A study of Mus musculus with 10 samples.

Results

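The glycolytic isozymes followed here belong to 5 glycolytic steps, in mouse cells labelled as spermatogonial stem cells, both fresh from the testis and in culture. Germ cell and somatic forms were both members at each step but that of Aldoa. The members were the rows whose gene name was Aldoa, Gapdhs, Gapdh, Pgk2, Pgk1, Pgam2, Pgam1, Ldhc, Ldha or Ldhb. These 10 names held 11 of the 21969 rows, since Aldoa stood on 2 rows with different gene identifiers, and all 11 passed the filter on low values. The data were 10 RNA-seq libraries in 5 groups of 2, given as FPKM, a count of fragments scaled by the length of the transcript and the size of the library. All cells were of the DBA/2 strain, and all cultured cells had human FGF2 at 10 ng/ml, rat GDNF at 15 ng/ml and 1% fetal bovine serum in a medium based on Iscove's. The groups of week 0, 1, 2 and 3 came from the testis of adult mice, by a magnetic sort for CD9, a protein of the cell surface, and were taken after that many weeks of culture. The last group was GS cells, an already established culture of spermatogonial stem cells. CD9 is also known from other cells of the testis. A feeder layer and the passage number of the GS cells are not stated in the labels, and nothing there says that the 2 libraries of a group came from separate animals or cultures. P-values therefore cover no more than the scatter of these libraries, some or all of which may be technical.

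Glycolysis splits glucose into pyruvate, and lactate dehydrogenase turns pyruvate and lactate into each other. Late spermatocytes and spermatids replace several of the usual enzymes with forms of their own, and sperm depend on these forms for motility. Gapdhs is the sperm form of glyceraldehyde-3-phosphate dehydrogenase, bound to the fibrous sheath of the tail, and Gapdh is the form of other cells. Pgk2 is an autosomal, intronless copy of the X-linked phosphoglycerate kinase gene Pgk1, and it serves when the X chromosome is silenced in meiosis. Ldhc encodes the testis subunit of lactate dehydrogenase, while Ldha and Ldhb encode the subunits best known from muscle and heart. Pgam2 is the muscle form of phosphoglycerate mutase, also known from testis, and Pgam1 is the widespread form. Aldoa encodes aldolase A, which cleaves fructose 1,6-bisphosphate.

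Promoter windows were set beside the values for phosphoglycerate kinase and lactate dehydrogenase, because Pgk2 is a copy of Pgk1 and Ldhc lies next to Ldha, yet the forms took unequal courses. Each window held 250 bases before and 50 bases after an annotated RefSeq start (GRCm38.p6), so it is the reference sequence and not that of DBA/2. Capitals mark 5 motifs searched on both strands, the TATA box as TATAAA, the GC box as GGGCGG, the core of the cAMP response element as TGACG, the core of the hypoxia response element as ACGTG, and the CCAAT box. These letters were found in 13.6%, 35.7%, 20.8%, 19.6% and 37.4% of 32851 promoter windows of this length. A palindrome counts on both strands, and neighbouring motifs can overlap.
Pgk2, chr17:40208560-40208859, minus strand: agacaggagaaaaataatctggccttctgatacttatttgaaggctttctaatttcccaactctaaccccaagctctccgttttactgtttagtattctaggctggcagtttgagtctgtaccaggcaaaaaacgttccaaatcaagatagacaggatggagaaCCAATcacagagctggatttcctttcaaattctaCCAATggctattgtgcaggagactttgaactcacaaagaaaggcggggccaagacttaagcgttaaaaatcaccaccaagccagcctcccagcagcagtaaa
Pgk1, chrX:106186850-106187149, plus strand: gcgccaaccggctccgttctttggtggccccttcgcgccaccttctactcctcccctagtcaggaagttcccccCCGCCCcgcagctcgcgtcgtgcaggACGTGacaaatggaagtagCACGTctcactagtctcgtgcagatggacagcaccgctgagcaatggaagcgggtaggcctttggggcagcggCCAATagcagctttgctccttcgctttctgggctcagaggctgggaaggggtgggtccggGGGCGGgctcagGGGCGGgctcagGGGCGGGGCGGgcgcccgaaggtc
Ldhc, chr7:46861013-46861312, plus strand: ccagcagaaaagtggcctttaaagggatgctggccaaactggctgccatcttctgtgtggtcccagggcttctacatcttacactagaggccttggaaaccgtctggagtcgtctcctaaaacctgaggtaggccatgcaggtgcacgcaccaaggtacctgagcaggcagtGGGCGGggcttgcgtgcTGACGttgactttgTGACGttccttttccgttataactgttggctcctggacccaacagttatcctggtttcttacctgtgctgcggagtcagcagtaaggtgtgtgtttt
Ldha, chr7:46845554-46845853, plus strand: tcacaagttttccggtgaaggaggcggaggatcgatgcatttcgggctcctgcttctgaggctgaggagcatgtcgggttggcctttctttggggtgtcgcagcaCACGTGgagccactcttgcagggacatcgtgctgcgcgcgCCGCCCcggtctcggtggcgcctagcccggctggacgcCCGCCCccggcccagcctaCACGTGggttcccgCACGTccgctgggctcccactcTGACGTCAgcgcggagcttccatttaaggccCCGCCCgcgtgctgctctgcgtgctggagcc
The Pgk2 window held 2 CCAAT boxes, none of the other 4 motifs, 43.0% G or C and 4 CpG. The Pgk1 window held 5 GC boxes, 2 hypoxia cores, 1 CCAAT box, 66.7% G or C and 24 CpG. The Ldhc window held 1 GC box, 2 cAMP cores, 53.3% G or C and 9 CpG. The Ldha window held 3 GC boxes, 2 cAMP cores, 5 hypoxia cores, 67.3% G or C and 30 CpG. Over all windows the median was 52.7% G or C and 7 CpG, so the windows of Pgk1 and Ldha, unlike that of Pgk2, were well above it in both. A match of letters is a description and not a bound site. RefSeq windows were found for all 10 names, 15 in all, and Ldhc and Ldha each had a second window that is not shown. Among the windows not shown, that of the germ cell form Gapdhs held hypoxia cores and a cAMP core. Gapdh had a hypoxia core, and none was found for the somatic form Ldhb. Hypoxia cores therefore did not separate germ cell from somatic forms over the members.

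Depth, read from the steps of low FPKM values, was 10.35 to 21.07 M (mega) reads a library. Libraries of the same group had Pearson correlations of 0.987 to 0.994 over the 15671 genes tested, as log2(FPKM + 1). The label of stem cells was set against markers. The summed FPKM of 20 spermatid genes was 30803 and 32572 at week 0, then 256.2 and 241.1 by week 1, 67.6 and 71.8 by week 2, 42.1 and 39.9 by week 3, and 54.3 and 54.6 for GS cells. The sum of 20 genes of undifferentiated spermatogonia was 127.7 and 135.1 at week 0, then 478.5 and 504.3 by week 1, 909.1 and 967.7 by week 2, 986.1 and 938.3 by week 3, and 1099 and 1055 for GS cells. The week 0 libraries thus held far more RNA of spermatid genes than of stem cell genes, and each result on week 0 refers to that mixture. In such bulk samples, fewer cells of a type and less RNA per cell cannot be told apart.

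The germ cell forms were high in both week 0 libraries and at 7.998 FPKM or less in all 8 others, while the somatic forms took different courses. Gapdh and Pgam1 were above both week 0 libraries in all 8 cultured ones, and Pgk1 was high at week 1 alone. Gapdh, Pgk1, Ldha, Ldhb and Aldoa fell at week 2 against week 1, and Pgam1 did not. Levels were compared with limma on log2(FPKM + 1), with the 5 groups in a single fit and a call at a Benjamini-Hochberg adjusted p under 0.05 over all 15671 genes. All 11 rows were called in the F test for any difference between groups (largest adjusted p 1.38e-05, Ldhb), as were 93.8% of all genes, so this call sets the members apart from nothing.

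**Figure D1:**
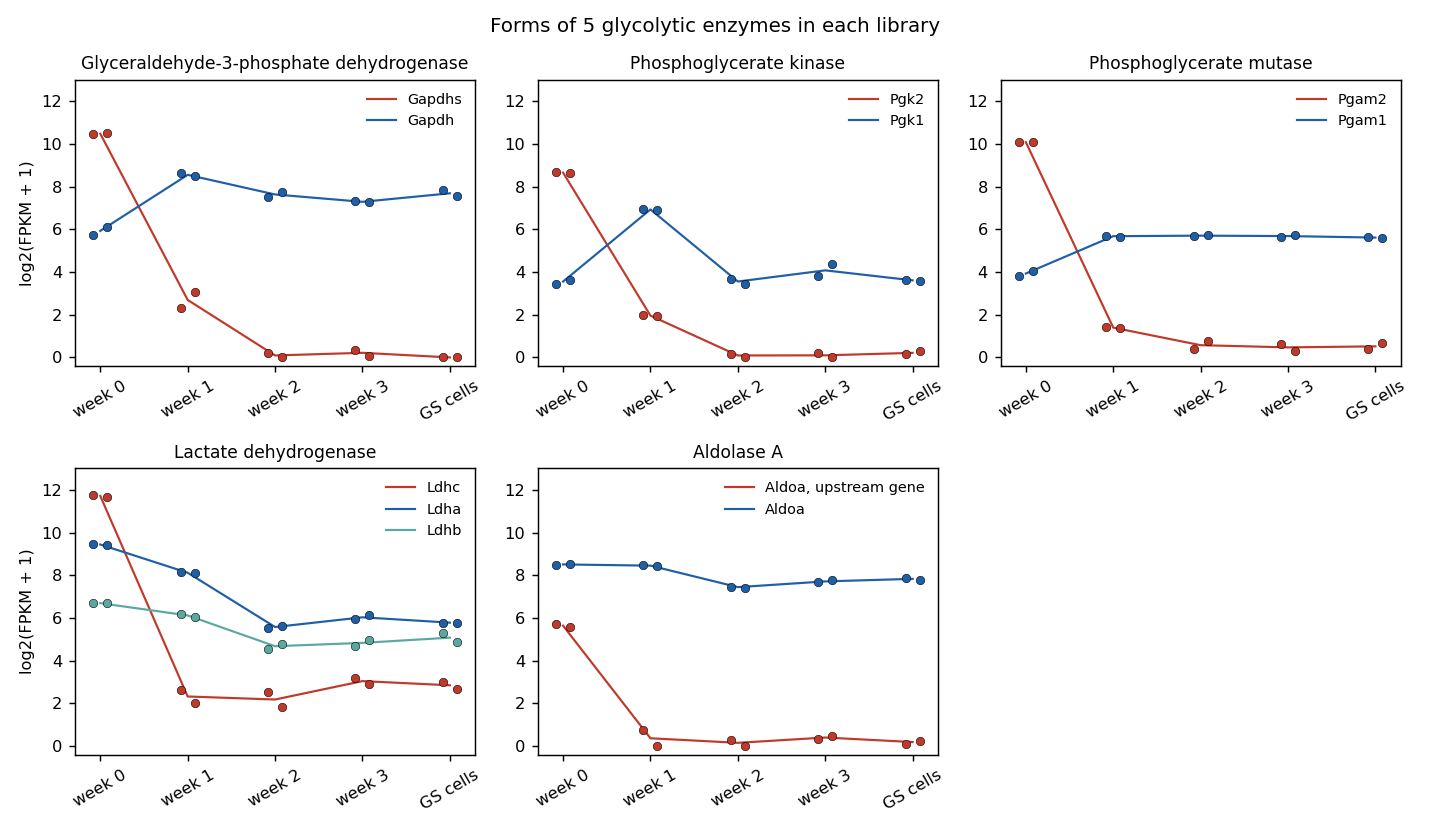
FPKM of each form, as log2(FPKM + 1), in the 10 libraries, with the groups along the x axis in the order of culture, points for libraries and lines through the group means. In 4 of the 5 panels the red germ cell form stands above its somatic partners at week 0 and below them in all later libraries, while the upstream Aldoa gene, red in the last panel, stays below Aldoa throughout.

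At the aldolase step, Aldoa (ENSMUSG00000030695.16, chr7:126795234-126800751, minus strand) was abundant in every library. It had 359.9 and 365.4 FPKM at week 0, then 355.0 and 342.1 by week 1, 176.1 and 169.9 by week 2, 201.3 and 216.1 by week 3, and 236.0 and 217.9 for GS cells. Week 1 and week 0 lay close together (log2 fold change -0.06, 95% interval -0.22 to 0.10, adjusted p = 0.465), and week 2 was lower than week 1 (log2 fold change -1.01 ± 0.07 SE, adjusted p = 1.19e-05). The second Aldoa row (ENSMUSG00000114515.2, chr7:126800790-126809108, minus strand) is annotated as a separate protein coding gene upstream of it, 38 bases away and with 0 shared bases. This upstream gene had 51.8 and 46.1 FPKM at week 0, then 0.67 and 0 by week 1, 0.24 and 0 by week 2, 0.25 and 0.39 by week 3, and 0.09 and 0.20 for GS cells. Its course was like that of the germ cell forms, with a log2 fold change of -5.27 ± 0.23 (SE) at week 1 against week 0 (adjusted p = 1.12e-07). At week 2 against week 1 it was not called (-0.21, adjusted p = 0.469), but it was lower without week 1 replicate 2 (-0.58, adjusted p = 0.0284). No role is given here for this row beyond its annotation.

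At the next step, Gapdhs (ENSMUSG00000061099.12, chr7:30729775-30743681, minus strand) had 1386 and 1458 FPKM at week 0, then 4.04 and 7.29 by week 1, 0.14 and 0 by week 2, 0.29 and 0.05 by week 3, and was listed at 0 in both GS libraries. The week 1 mean was 0.398% of the week 0 mean, with a log2 fold change of -7.78 ± 0.23 (SE, adjusted p = 1.03e-08). Week 2 was lower again than week 1 (log2 fold change -2.60 ± 0.23, adjusted p = 4.06e-05). Gapdh (ENSMUSG00000057666.18, chr6:125161715-125166467, minus strand) had 52.0 and 68.6 FPKM at week 0, then 392.8 and 354.9 by week 1, 183.4 and 211.4 by week 2, 157.7 and 152.2 by week 3, and 227.0 and 184.4 for GS cells. Each cultured library was above both week 0 libraries. Gapdh rose by a log2 fold change of 2.62 ± 0.15 (SE) at week 1 against week 0 (adjusted p = 6.00e-07) and fell at week 2 against week 1 (-0.92 ± 0.15, adjusted p = 0.00111). Gapdh, widely used as a reference gene, was therefore not level across these groups.

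Phosphoglycerate kinase makes the first ATP of the pathway. Pgk2 (ENSMUSG00000031233.6, chr17:40207015-40208640, minus strand, 1 exon) had 411.7 and 391.95 FPKM at week 0, then 2.94 and 2.82 by week 1, 0.14 and 0 by week 2, 0.14 and 0 by week 3, and 0.10 and 0.22 for GS cells. Its lone transcript let these values be turned into reads, 6076 and 7065 at week 0, then 70 and 64 by week 1, and 0 to 6 in each of the other 6 libraries. The level at week 1 was thus measured, at 0.717% of week 0, while the level from week 2 on lay at the limit of detection, since 3 reads were worth 0.157 and 0.111 FPKM in the 2 libraries with none. These limits cover counting error alone. The log2 fold change was -6.70 ± 0.13 (SE) at week 1 against week 0 (adjusted p = 1.44e-09) and -1.86 ± 0.13 at week 2 against week 1 (adjusted p = 1.37e-05).

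Pgk1 (ENSMUSG00000062070.12, chrX:106187100-106203699, plus strand, up to 11 exons) had 9.99 and 11.5 FPKM at week 0, then 122.9 and 118.7 by week 1, 11.7 and 9.90 by week 2, 12.8 and 19.5 by week 3, and 11.3 and 11.1 for GS cells. The week 1 libraries stood far above the other 8, of which the 2 from week 3 were the highest and the other 6 overlapped. The log2 fold change was 3.38 ± 0.18 (SE) at week 1 against week 0 (adjusted p = 3.70e-07) and -3.37 ± 0.18 at week 2 against week 1 (adjusted p = 3.61e-06). GS cells and week 0 gave a log2 fold change of 0.06 with a 95% interval of -0.35 to 0.47 (adjusted p = 0.778). That call depended on the scaling, since Pgk1 was called higher in GS cells than at week 0 after quantile normalization (0.76, adjusted p = 0.00306) and after scaling to a common FPKM sum (0.50, adjusted p = 0.0287). At week 3 against week 2 Pgk1 was not called (0.52, adjusted p = 0.0748), but it was without week 3 replicate 1 (0.81, adjusted p = 0.0148). The summed FPKM of both kinases was 421.7 and 403.4 at week 0, then 125.9 and 121.6 by week 1, 11.8 and 9.90 by week 2, 12.99 and 19.5 by week 3, and 11.4 and 11.3 for GS cells.

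Phosphoglycerate mutase moves the phosphate of phosphoglycerate. Pgam2 (ENSMUSG00000020475.3, chr11:5801640-5803733, minus strand) had 1091 and 1074 FPKM at week 0, then 1.69 and 1.57 by week 1, 0.30 and 0.70 by week 2, 0.54 and 0.25 by week 3, and 0.30 and 0.58 for GS cells. In reads of its lone transcript these were 7225 and 8689 at week 0, then 18 and 16 by week 1, and 3 to 7 in the other 6 libraries. Pgam2, a muscle form by name, therefore behaved in these libraries as Gapdhs and Pgk2 did, with a log2 fold change of -8.69 ± 0.18 (SE) at week 1 against week 0 (adjusted p = 1.69e-09). Pgam1 (ENSMUSG00000011752.6, chr19:41911923-41918660, plus strand) had 13.2 and 15.4 FPKM at week 0, then 50.7 and 49.6 by week 1, 50.6 and 51.4 by week 2, 49.1 and 51.6 by week 3, and 48.6 and 47.1 for GS cells. It was the steadiest form in culture, with all 8 cultured libraries between 47.1 and 51.6 FPKM. Its log2 fold change was 1.75 ± 0.09 (SE) at week 1 against week 0 (adjusted p = 2.68e-07), and at week 2 against week 1 it was 0.02 with a 95% interval of -0.18 to 0.23. Under a common FPKM sum that last difference was called higher (0.33, adjusted p = 0.012).

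Among the members, Ldhc of the lactate dehydrogenase step had the highest FPKM at week 0. Ldhc (ENSMUSG00000030851.15, chr7:46861203-46878142, plus strand) had 3471 and 3245 FPKM at week 0, then 5.09 and 3.12 by week 1, 4.72 and 2.60 by week 2, 7.998 and 6.56 by week 3, and 7.05 and 5.44 for GS cells. Unlike Gapdhs, Pgk2 and Pgam2, it stayed above 2 FPKM in every cultured library. Its log2 fold change was -9.39 ± 0.26 (SE) at week 1 against week 0 (adjusted p = 6.97e-09), and the week 1 mean was 0.122% of that at week 0. Ldhc was higher at week 3 than at week 2 (0.86 ± 0.26, adjusted p = 0.0471), a call at the threshold that was lost without week 2 replicate 2 (0.53, adjusted p = 0.238), without either week 3 library (adjusted p = 0.193 and 0.0885) and in 9 other alternatives.

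Ldha (ENSMUSG00000063229.15, chr7:46841475-46855627, plus strand) lies 5575 bases before Ldhc on the same strand. It had 697.5 and 688.6 FPKM at week 0, then 280.8 and 272.9 by week 1, 45.2 and 48.3 by week 2, 60.1 and 68.9 by week 3, and 54.1 and 53.9 for GS cells. Ldha is classed as a somatic form, yet its highest libraries were those of week 0. It fell in 2 steps, by a log2 fold change of -1.32 ± 0.08 (SE) at week 1 against week 0 (adjusted p = 7.76e-07) and of -2.54 ± 0.08 at week 2 against week 1 (adjusted p = 6.58e-07). It was then higher at week 3 than at week 2 (0.45 ± 0.08, adjusted p = 0.00596), a call lost without week 2 replicate 1 (0.41, adjusted p = 0.05) and with only these groups fitted (adjusted p = 0.0719). Ldhb (ENSMUSG00000030246.11, chr6:142490249-142507957, minus strand) had 101.8 and 103.1 FPKM at week 0, then 73.0 and 64.3 by week 1, 22.7 and 26.7 by week 2, 24.6 and 30.7 by week 3, and 37.9 and 28.3 for GS cells. It followed Ldha with smaller falls, of -1.44 ± 0.16 (SE) at week 2 against week 1 (adjusted p = 0.00015) and of -0.57 ± 0.16 at week 1 against week 0 (adjusted p = 0.0104). The earlier fall of Ldhb lost its call without either week 0 library (adjusted p = 0.0595 and 0.0647), without week 1 replicate 2 (0.0629) and under both other scalings.

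**Figure D2:**
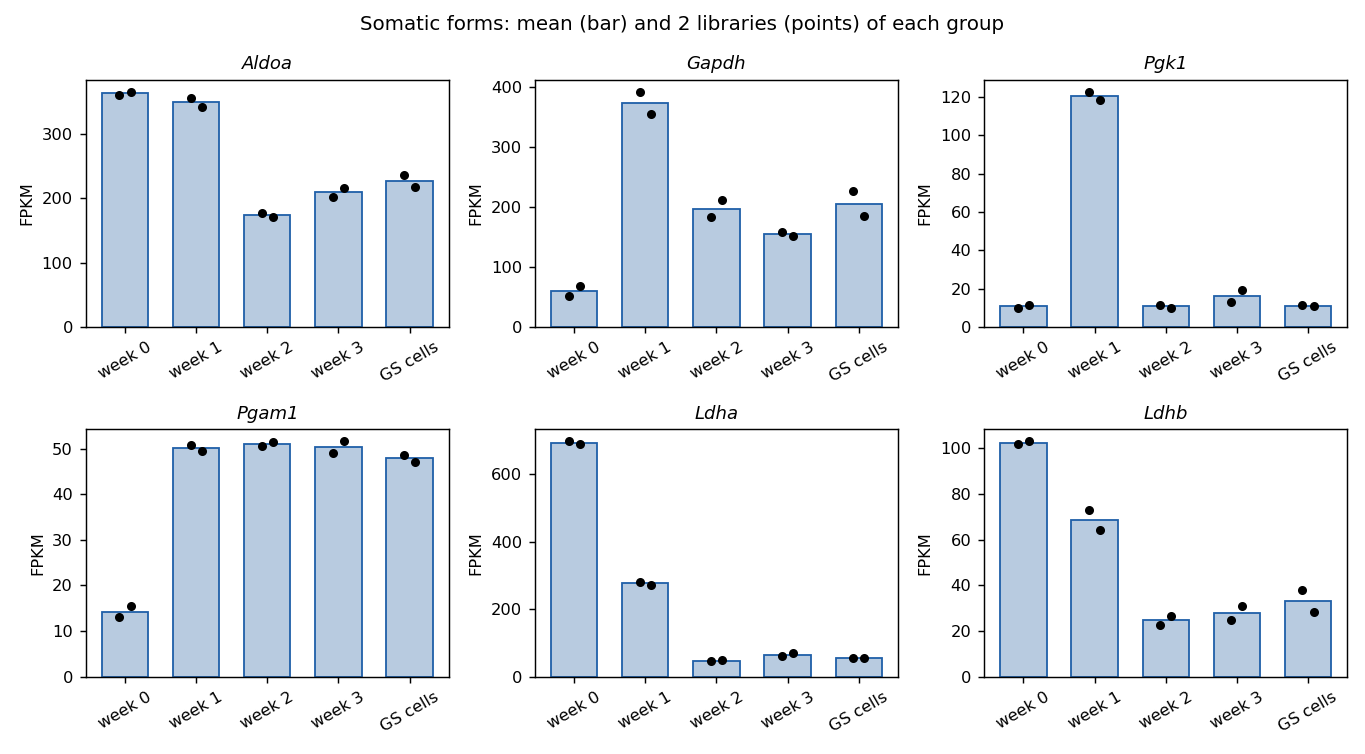
FPKM of the 6 somatic forms on linear axes from 0, where a bar is the mean of a group and the 2 points are its libraries. Pgk1 stands high at week 1 alone (122.9 and 118.7 FPKM), Pgam1 is level in culture (47.1 to 51.6 FPKM), and Ldha is highest at week 0.

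The forms of a step were then set against each other within each library. Gapdhs made up 96.4% and 95.5% of the summed FPKM of its step at week 0, then 1.02% and 2.01% by week 1 and at most 0.184% in any later library. Pgk2 made up 97.6% and 97.2% of its step at week 0, then 2.34% and 2.32% by week 1 and 0 to 1.98% later. Pgam2 made up 98.8% and 98.6% of its step at week 0, then 3.22% and 3.07% by week 1 and 0.48% to 1.34% later. At these 3 steps nearly all RNA thus came from the germ cell form at week 0 and from the somatic form in culture.

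Lactate dehydrogenase differed in degree. Ldhc made up 81.3% and 80.4% of the 3 subunits at week 0, then 1.42% and 0.92% by week 1, 6.51% and 3.35% by week 2, 8.62% and 6.17% by week 3, and 7.12% and 6.21% for GS cells. Ldhb made up 2.38% and 2.55% at week 0, then 20.3% and 18.9% by week 1, 31.2% and 34.4% by week 2, 26.5% and 28.9% by week 3, and 38.3% and 32.3% for GS cells. The balance of the 2 somatic subunits moved as well as that of the testis subunit. The summed FPKM of the step was 4271 and 4036 at week 0, then 358.9 and 340.3 by week 1, 72.5 and 77.6 by week 2, 92.7 and 106.2 by week 3, and 99.1 and 87.6 for GS cells.

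**Figure D3:**
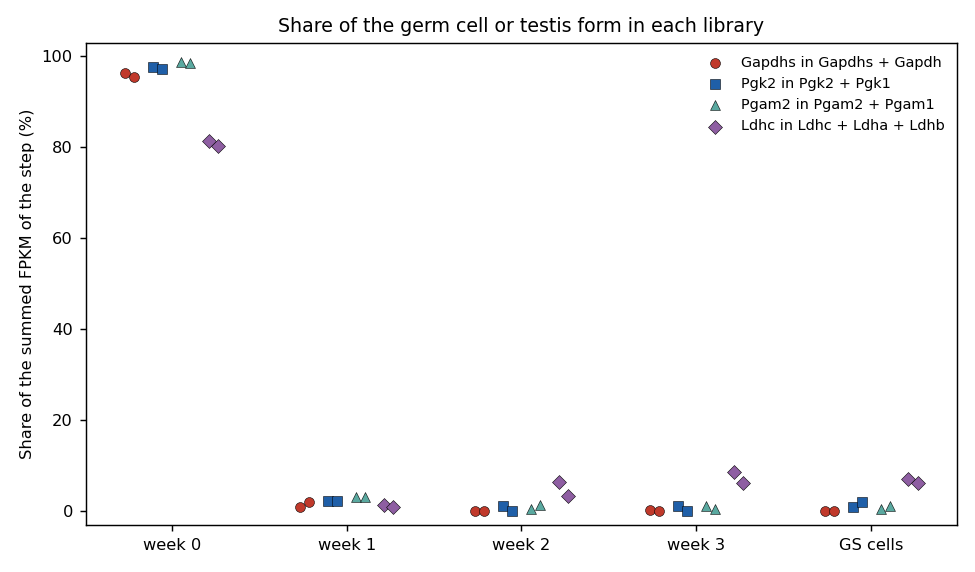
Share of the germ cell or testis form in the summed FPKM of its step, in percent on the y axis, for each of the 10 libraries by group. The shares at week 0 lie between 80.4% and 98.8%, and all later shares lie at or below 8.62%, with Ldhc the highest of the 4 from week 2 on.

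Whether the forms of a step moved differently was tested on the log2 ratio of their FPKM + 1. The test was an exact permutation test of a one-way F over all 945 divisions of the 10 libraries into 5 pairs, whose smallest possible p is 0.00106, with adjustment over the 6 ratios. All 6 ratios differed between the groups, with exact p of 0.00317 for Gapdhs to Gapdh and for Pgk2 to Pgk1, 0.0106 for Pgam2 to Pgam1, 0.00952 for Ldhc to Ldha, 0.00741 for Ldhc to Ldhb and 0.00212 for Ldha to Ldhb. The adjusted values were 0.00635 to 0.0106. Each p covers any difference between the 5 groups and rests also on how the libraries from week 2 on pair. It is thus no measure of the change from week 0 alone. The ratios among Ldhc, Ldha and Ldhb share genes and are not independent. Pairs of 2 against 2 libraries cannot reach 0.05 in such a test, so single steps of the course were not tested on the ratios.

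The ratio of Pgam2 to Pgam1, as a mean log2 value ± SD of 2 libraries, was -4.28 ± 0.02 at week 1 and 6.15 ± 0.16 at week 0. The ratio of Pgk2 to Pgk1 was -4.97 ± 0.003 at week 1 and 5.10 ± 0.18 at week 0. From week 2 on, both ratios and that of Gapdhs to Gapdh were set mainly by the pseudocount of 1, since Pgk2, Pgam2 and Gapdhs lay below 1 FPKM. The later values of these ratios therefore give no order of the groups. The ratio of Ldha to Ldhb was 2.75 ± 0.03 at week 0, then 2.00 ± 0.10 by week 1, 0.90 ± 0.09 by week 2, 1.197 ± 0.08 by week 3, and 0.70 ± 0.29 for GS cells. Ldha thus stayed above Ldhb in all 10 libraries, by less in culture than at week 0.

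Counted over the 11 rows, 3 were higher and 7 lower at week 1 against week 0, beside 36.3% higher and 44.0% lower of all genes. Rises were no more common among the members than over all genes. The median log2 fold change was -1.32 over the members and -0.14 over all genes. Of all calls in this comparison 45.2% were higher, against 59.8% after quantile normalization, which set the median of all genes at 0.38. Aldoa, the row not called, was called higher at week 1 than at week 0 under that scaling (0.22, adjusted p = 0.0105) and under a common FPKM sum (0.19, adjusted p = 0.0148), both relative to a shifted median. At week 2 against week 1, 0 rows were higher and 8 lower, beside 28.2% and 27.4% of all genes, and the members' median was -1.01 against 0.03 over all genes. The higher share of all calls there was 50.7%, against 61.8% after quantile normalization and 66.3% under a common FPKM sum. All 8 of these calls on members held in all 17 alternatives, but the size of the falls of low genes hung on the pseudocount. With 0.1 in place of 1, the log2 fold change at week 2 against week 1 was -5.17 for Gapdhs, -4.28 for Pgk2 and -1.61 for Pgam2, while with 1 it was -2.60, -1.86 and -0.82.

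At week 3 against week 2, 3 rows (Ldhc, Ldha and Aldoa) were higher and 0 lower, beside 10.6% and 10.7% of all genes. Aldoa rose by a log2 fold change of 0.27 ± 0.07 (SE, adjusted p = 0.0288), and this call was lost without any 1 of the 4 libraries compared (adjusted p of 0.0501 to 0.154). The median was 0.16 over the members and 0.0005 over all genes. In GS cells against week 3, limma called 0 of the 11 rows, beside 11.7% higher and 10.8% lower of all genes, with medians of -0.07 and -0.01. At an unadjusted p under 0.05 there were 3, Gapdh (log2 fold change 0.40, 95% interval 0.05 to 0.74), Pgk1 (-0.47, -0.88 to -0.06) and Ldha (-0.25, -0.43 to -0.07). Without week 3 replicate 1, Pgk1 (-0.75, adjusted p = 0.0178) and Ldha (-0.35, adjusted p = 0.0343) were called lower, and under both other scalings Ldha alone was.

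GS cells against week 0 spanned the whole course, with 2 rows higher, 8 lower and Pgk1 not called, beside 34.7% higher and 45.9% lower of all genes. The members' median was -3.66, against -0.21 over all genes. Gapdh (1.76 ± 0.15 SE, adjusted p = 7.71e-06) and Pgam1 (1.68 ± 0.09, adjusted p = 3.45e-07) were the rows that were higher. Of the lower rows, Pgk2 had -8.44 ± 0.13, Pgam2 -9.56 ± 0.18, Ldhc -8.87 ± 0.26, the upstream Aldoa gene -5.45 ± 0.23, Ldha -3.66 ± 0.08 and Ldhb -1.62 ± 0.16. With a pseudocount of 0.1, Pgk2 had -10.63, Pgam2 -11.02 and the upstream Aldoa gene -7.70, so the sizes for these low genes rest on the pseudocount. Gapdhs, listed at 0 in GS cells, is given no fold. Aldoa was lower by the least (-0.68 ± 0.07, adjusted p = 2.56e-05) and was not called after quantile normalization (-0.05, adjusted p = 0.448), under which 61.1% of all calls were higher, beside 54.1% under a common FPKM sum and 43.0% in the values as deposited. This comparison shares its libraries with those above.

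**Figure D4:**
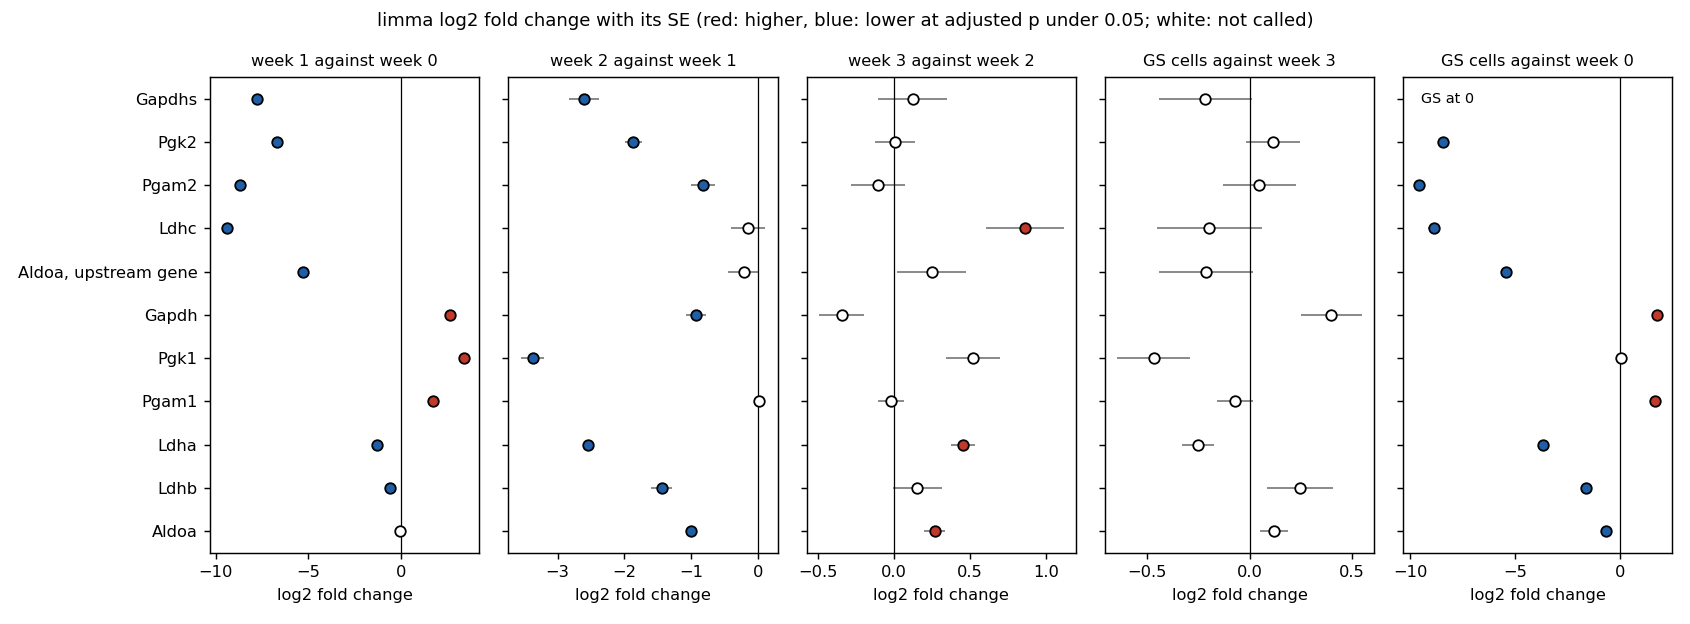
limma log2 fold change (x axis, a scale of its own in each panel) with its SE for the 11 rows in 5 comparisons, red for a call higher, blue for a call lower and white for no call. Gapdhs, Pgk2, Pgam2, Ldhc and the upstream Aldoa gene are lower at week 1 than at week 0, and in GS cells against week 3 no row is called; Gapdhs, listed at 0 in GS cells, has no point in the last panel.

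Ranked by FPKM, which is a level per length, the order of the forms turned over between week 0 and culture. At week 0 the order was Ldhc, Gapdhs, Pgam2, Ldha, Pgk2, Aldoa, Ldhb, Gapdh, the upstream Aldoa gene, Pgam1 and Pgk1, and no neighbours overlapped. At week 1 the order was Gapdh, Aldoa, Ldha, Pgk1, Ldhb, Pgam1, Gapdhs, Ldhc, Pgk2, Pgam2 and the upstream Aldoa gene, with Gapdh and Aldoa overlapping and Gapdhs and Ldhc overlapping. The somatic forms thus stood above Gapdhs, Ldhc, Pgk2, Pgam2 and the upstream Aldoa gene at week 1.

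Marker genes of several cell types moved with these results. All 20 of the 20 spermatid genes were lower at week 1 than at week 0, beside 44.0% of all genes. The sum of these 20 fell to 0.785% of that at week 0, beside 0.122% to 0.717% for Gapdhs, Pgk2, Pgam2, Ldhc and the upstream Aldoa gene. Prm1, Prm2 and Tnp2, which package sperm DNA, were listed at 0 in both week 2 and both GS libraries, together with 5 other genes of that list at week 2 and 7 others in GS cells. At week 1 Akap3, Catsper1 and Txndc8 were at 0 in both libraries, and at week 3 Spem1, Catsper1 and Txndc8 were. Of 20 spermatocyte genes 19 were lower at week 1, beside 44.0% of all genes, with sums of 394.4 and 363.0 against 2577 and 2417 at week 0. Of these 20, 0 were at 0 in both libraries of any group. From week 2 on the spermatocyte sums were 565.7 and 535.3, then 686.3 and 735.1 by week 3, and 684.3 and 684.9 for GS cells. Of the 20 genes 9 were higher and 1 lower at week 2 than at week 1, beside 28.2% and 27.4% of all genes. Ldhc was not called there by limma (log2 fold change -0.14, adjusted p = 0.675). At week 3 against week 2, 8 of the 20 were higher, 0 lower and 12 not called, beside 10.6% higher and 10.7% lower of all genes. Ldhc was higher there too, by a call at the threshold that was lost in many alternatives, as given above. The list was split, with Sycp3 and Adad2 the largest rises. Ccna1 and Hspa2, its largest falls at week 1, were not called (log2 fold change -0.51 and 0.04). In GS cells against week 0 these 2 stood at -6.36 and -6.02. The part of these cells in the results on the germ cell forms was not tested.

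RNA of fibroblast genes was also highest at week 1, as Pgk1 and Gapdh were. The summed FPKM of 20 fibroblast genes was 1195 and 1399 at week 0, then 11094 and 10794 by week 1, 1033 and 1058 by week 2, 485.7 and 950.9 by week 3, and 926.3 and 887.0 for GS cells. All 20 were higher at week 1 than at week 0, beside 36.3% of all genes. All 20 were lower at week 2 than at week 1, beside 27.4% of all genes. Of the 20 fibroblast genes, 0 were at 0 in both libraries of any group. Of 14 tested hypoxia targets outside glycolysis 10 were higher and 3 lower at week 1 than at week 0, beside 36.3% and 44.0% of all genes, and 2 were higher and 9 lower at week 2 than at week 1, beside 28.2% and 27.4%. Vegfa, a growth factor for blood vessels, had 203.2 and 199.0 FPKM at week 1, against 11.1 and 12.8 at week 0. Hmox1, which breaks down heme, had 448.3 and 427.4 FPKM at week 1, against 22.8 and 27.2 at week 0. At week 3 against week 2, 7 of the 14 hypoxia targets were higher and 1 lower, beside 10.6% and 10.7% of all genes. Neither Pgk1 nor Gapdh was called there. Of the other somatic forms at week 1 against week 0, Pgam1 was higher, Ldha and Ldhb were lower and Aldoa was not called. The part of the fibroblast genes or of the hypoxia targets in the levels of Pgk1 and Gapdh at week 1 was not tested.

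Markers of other testis cells moved as well. The summed FPKM of 15 Sertoli genes was 825.3 and 895.4 at week 0, then 2078 and 2069 by week 1, 393.9 and 400.4 by week 2, 227.4 and 293.2 by week 3, and 479.8 and 414.3 for GS cells. That sum was highest at week 1, but the list was split. Of the 15 genes 4 were higher and 10 lower at week 1 than at week 0, beside 36.3% and 44.0% of all genes. For 10 smooth muscle and myoid genes the sum was 1387 and 1736 at week 0, then 1399 and 1335 by week 1, 113.6 and 107.95 by week 2, 41.6 and 110.2 by week 3, and 129.1 and 134.9 for GS cells. Of these 10 genes 2 were higher and 7 lower at week 1 than at week 0. For 10 Leydig genes the sum was 1891 and 1641 at week 0, then 192.1 and 185.4 by week 1, and between 29.0 and 44.5 in the other 6 libraries. The Sertoli, muscle and Leydig sums were lower in both week 2 libraries than in both week 1 libraries, as were the fibroblast and macrophage sums. All somatic forms but Pgam1 were lower there too, so this fall was particular to no list and no form. For 12 macrophage genes it was 480.6 and 528.5 at week 0, and 34.03 to 118.5 in the cultured libraries. For 10 endothelial genes it was 94.9 and 79.7 at week 0, and 34.1 to 50.4 in the cultured libraries. For 6 erythroid genes it was 19.2 and 19.0 at week 0 and at most 0.412 later. Of the Sertoli genes the FSH receptor Fshr was at 0 in both libraries of every cultured group, and of the Leydig genes the LH receptor Lhcgr was. The part of these cells in the courses of the somatic forms was not tested.

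Most other glycolysis genes fell as culture began. Of 23 tested (27 listed), 4 were higher and 17 lower at week 1 than at week 0, beside 36.3% and 44.0% of all genes, and 1 was higher and 9 lower at week 2 than at week 1, beside 28.2% and 27.4%. Hexokinase, which phosphorylates glucose, also changed form, since Hk1 had 27.9 and 30.3 FPKM at week 1 against 1128 and 1059 at week 0, while Hk2 had 126.4 and 109.7 at week 1 against 10.1 and 12.1 at week 0. Ldhal6b, a retrogene of the lactate dehydrogenase family, had 0.24 and 0.40 FPKM at week 1 against 517.3 and 487.1 at week 0. Among the aldolase genes, the retrogene Aldoart2 held 29.6% of the summed FPKM in both week 0 libraries and at most 0.0883% in any later library, and Aldoa held 53.1% and 54.9% at week 0 and 82.7% to 95.3% later. At week 3 against week 2, 5 of the 23 were higher and 0 lower, led by Pfkp and Eno1, beside 10.6% and 10.7% of all genes. In GS cells against week 3, 3 were higher and 3 lower, close to the 11.7% and 10.8% of all genes.

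Of 10 transporters for glucose and lactate tested, 3 were higher and 5 lower at week 1 than at week 0, which is close to the 36.3% and 44.0% of all genes and no result about the list. The glucose carrier Slc2a1 had 68.4 and 70.1 FPKM at week 1 against 8.79 and 8.39 at week 0, and Slc2a3 had 21.6 and 21.4 at week 1 against 870.5 and 798.5 at week 0. In GS cells against week 0, 4 of the 23 glycolysis genes were higher and 17 lower, and 3 of the 10 transporters were higher and 7 lower, beside 34.7% and 45.9% of all genes.

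**Figure D5:**
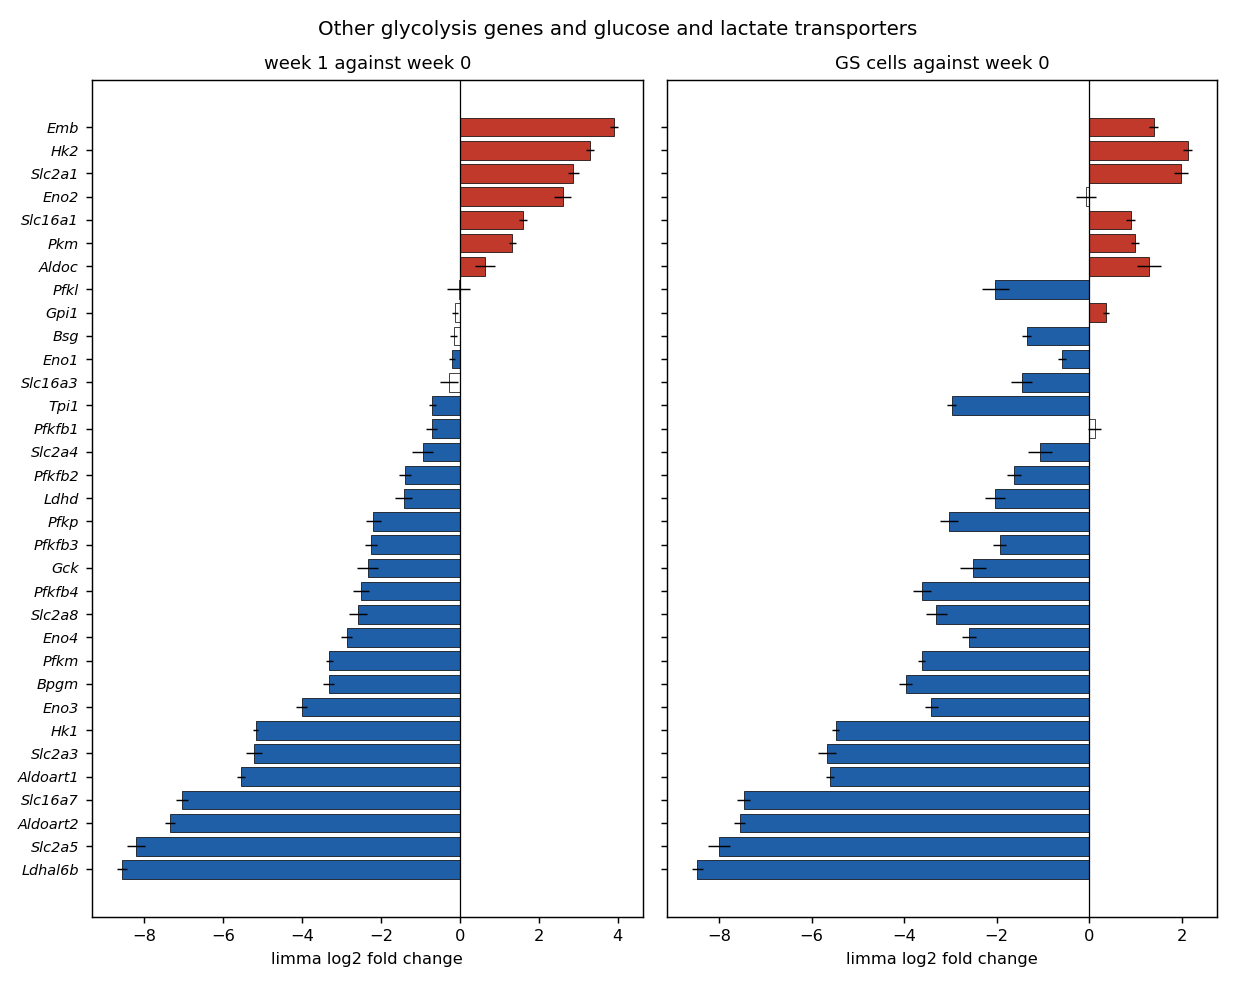
limma log2 fold change with its SE (x axis) of the 33 tested glycolysis and transporter genes outside the members, ordered by the change at week 1 against week 0, red for a call higher, blue for lower and white for no call. Emb, Hk2 and Slc2a1 lead the rises at week 1 and Ldhal6b, Slc2a5 and Aldoart2 the falls, and most bars point the same way in GS cells against week 0.

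The genes whose course was most like that of a member, by Pearson correlation over the 10 libraries as log2(FPKM + 1), were named for all members but Pgam2. For Gapdhs these were Iqcf3 (r = 0.9994), Tnp2 (0.999) and Hrasls5 (0.9989), and for Pgk2 Hrasls5 (0.9994), 4833427G06Rik and St6galnac2. For Ldhc they were Myo18b (0.9984), Spata24 and Tex45. Pgk1 was most like Plet1 (0.9945), Ywhah and Ccr1, and Gapdh like Slc39a1 (0.9945), Capg and Gng12. Ldha was most like Hdlbp (0.996), Tspan6 and Rnpep, and Ldhb like Ctxn1, Dad1 and Psmd8. Aldoa was most like B4galnt1, Trib2 and Sdc3, the upstream Aldoa gene like Tas1r3, Amer2 and Zmynd10, and Pgam1 like Wdr61, Nufip1 and Hoxb7. The points share their libraries and fall into few clusters, so these values are a description.

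The forms of a step are similar in coding sequence but share no long run of bases. Coding identity, over aligned bases, was 71.7% between Gapdhs and Gapdh, 79.3% between Pgk2 and Pgk1, 74.8% between Pgam2 and Pgam1, 73.7% between Ldhc and Ldha, 65.4% between Ldhc and Ldhb and 73.3% between Ldha and Ldhb. The longest identical run in these alignments was 28 bases, between Pgam2 and Pgam1, and 0 runs of 50 bases in their transcripts were shared between members. Gapdhs, Pgk2, Pgam2, Ldhc and the upstream Aldoa gene shared 0% of their 50-base runs with any other annotated gene. The somatic forms shared more, 53.9% for Pgk1 (5 other genes, with Pgk1-rs7 first), 36.2% for Pgam1, 24.7% for Gapdh (218 other genes, 209 of them pseudogenes), 21.0% for Ldhb, 9.03% for Ldha and 6.43% for Aldoa. Their levels are therefore the less certain ones, and the labels do not say how reads of such copies were shared out. For Aldoa there were 6 other genes, with Aldoart1 first. Aldoart1 had 50.3 and 46.0 FPKM at week 0 and at most 0.068 in any later library, so sharing with it concerns Aldoa at week 0. Its size was not tested.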

How the data were processed

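RNA was made into strand-specific poly(A) libraries, per the labels' protocols. The authors deposited their FPKM values in 1 matrix, with a column for each library. Per the submitters' processing notes the tools were Cufflinks 2.2.1 with Cuffdiff, HISAT2 2.1.0, Bowtie2 2.3.4.1, cutadapt 1.16 and bcl2fastq 2.17.1.14, on mm10, with no roles named. The annotation release and the mode of normalization: not given in the sources used here. Identifiers were matched to GENCODE M21 (GRCm38, 21951 of 21969 found). Values were analysed as log2(FPKM + 1), which understates changes of low genes, for the 15671 genes that reached FPKM 1 in 2 or more libraries. The 5 groups were fitted with limma 3.58.1 in R 4.3.3 (5 residual degrees of freedom). Consecutive comparisons share a group. Depth was estimated from 2268 genes with a lone transcript of at least 1500 bases and a fragment of 200 bases. Between 95.3% and 98.4% of their low values were whole reads within 0.15. Among 15 housekeeping genes, a list that included the member Pgk1, 0 had a value of 0 in any library. The scripts were tested on simulated data. The named genes were all members and, from other lists, genes among the 2 largest rises or falls of a comparison, which were not named for every list. Of each member the 3 most alike genes were named, except that those of Pgam2 are not reported here, and Hk1, Slc2a3, the fall of Pdha2 and the markers listed at 0 were named after their values were seen. The members and lists were chosen with earlier results of these data known. Alternatives were a pseudocount of 0.1, no filter, quantile normalization, a common FPKM sum, a replicate block, no trend, a fit of only the 2 groups compared and each library left out.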

Additional observations from a re-analysis of the deposited data

How the results depend on the processing

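Of 55 changes of members (11 rows in 5 comparisons), 31 were called, and 26 of these kept direction and call in all 17 alternatives, while 5 lost the call in some (Ldhb at week 1 against week 0, Ldhc, Ldha and Aldoa at week 3 against week 2, and Aldoa in GS cells against week 0). Counts of members here describe how calls held and are no result about the members. The shares of all genes called in each comparison are given above. Aldoa at week 1 against week 0, not called as deposited, turned to 0.22 under quantile normalization and 0.19 under a common FPKM sum, where its call follows from the scaling. Of the members, 3 were called at week 3 against week 2, but 1 without the trend, 0 with only the 2 groups fitted and 1 to 3 with a library left out. In GS cells against week 3 the number was 0, but 1 under either other scaling and 0 to 2 with a library left out. Over all genes, 3339 calls at week 3 against week 2 became 1880 with only the 2 groups fitted and 1587 to 3523 with a library left out. In GS cells against week 3, 3526 calls became 1326 and 1788 to 3708. Leaving out a library assumes that the lone one left varies like the other groups. The 6 ratios stayed under 0.05 in all 84 repeats. The replicate numbers did not pair the libraries (correlations of -0.05 to 0.05 over 10 group pairs), and with a replicate block 10, 8, 3, 0 and 10 members were called. Depth limits Pgk2 and Pgam2 from week 2 on to 0 to 7 reads a library.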

Other observations

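Pyruvate dehydrogenase, which feeds pyruvate into the mitochondrial cycle, also has an X-linked and an autosomal form, and they moved in opposite directions at week 1. Pdha1, the X-linked alpha subunit of pyruvate dehydrogenase, had 65.3 and 58.0 FPKM at week 1, against 6.64 and 10.3 at week 0 (limma log2 fold change 2.75 ± 0.17 SE, adjusted p = 1.08e-06). Pdha2, its autosomal copy in the testis, had 7.41 and 6.98 FPKM at week 1, against 87.1 and 80.9 at week 0 (-3.37 ± 0.09, adjusted p = 5.19e-09). It was then higher at week 2 than at week 1 (0.92 ± 0.09, adjusted p = 6.18e-05), with 14.0 and 14.9 FPKM at week 2, and it had 19.9 and 20.0 FPKM in GS cells. Pdk1, a kinase that inhibits pyruvate dehydrogenase, had 136.8 and 139.3 FPKM in GS cells, against 16.1 and 18.0 at week 0 (2.95 ± 0.09, adjusted p = 1.45e-08). Of the 16 genes of pyruvate entry tested, 6 were higher and 7 lower at week 1 than at week 0, close to the 36.3% and 44.0% of all genes, and 5 were higher and 9 lower in GS cells than at week 0, beside 34.7% and 45.9%.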
